A study of Mus musculus with 16 samples.

Results

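The 4 replicate arrays of 3T3-L1 cells exposed to dexamethasone (dex) for 36 h were compared with the 4 arrays of cells kept in the DMSO vehicle for 2 h, which together are 8 of the 16 arrays of the study. The groups were taken from the sample titles. 3T3-L1 is an established mouse fibroblast line that can be turned into fat cells, and dex is a synthetic glucocorticoid. The RNA of each culture, labelled with Cy5, was hybridised together with a Cy3-labelled pool of the samples, so every value is a log2 ratio of a sample to that pool. The remaining groups, each of 4 biological replicates, were DMSO at 36 h and dex at 2 h. All groups share the cell line and the vehicle, and the labels name no genotype, dose or medium.

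Treatment and time both differ between the 2 groups compared, and the comparison does not tell them apart by itself. It answers another question. A gene that is higher with dex than with DMSO at 36 h may have risen in the dex-treated cells, or it may have been lost from the vehicle-treated cells while the dex-treated cells stayed at the starting level. Setting the late dex arrays against the early vehicle arrays shows which of these descriptions the levels follow, gene by gene. The difference between late dex and early DMSO is the sum of the difference between dex and DMSO at 36 h and the change in DMSO from 2 to 36 h. These differences share arrays, so they are given side by side and none is evidence for another.

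Glucocorticoids enter the cell and bind the glucocorticoid receptor, a transcription factor encoded by Nr3c1 that is held in the cytoplasm by chaperones until it meets its ligand. The bound receptor moves to the nucleus, where it raises the transcription of some genes at palindromic DNA elements and lowers that of others, among them genes driven by inflammatory transcription factors. In preadipocytes, dex is a standard part of the hormone mixture that starts fat cell differentiation, in which C/EBP-beta and C/EBP-delta come first and PPAR-gamma and C/EBP-alpha later.

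The early vehicle arrays were the noisier ones. After the group means were taken out, the standard deviation over probes was 0.383, 0.325, 0.212 and 0.502 in DMSO 2 h replicates 1 to 4, and 0.141 to 0.236 in the dex 36 h arrays. Across probes, the mean correlation of DMSO 2 h replicate 4 with the rest of its group was -0.10. Correlations between pairs of arrays ran from -0.26 to 0.35 within DMSO 2 h and from 0.16 to 0.79 within dex 36 h. Cell markers could be checked only as ratios to a pool of the same cells, which do not show whether a marker is present.

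Of 19640 genes measured, 1386 (7.06%) had a probe that passed an adjusted p under 0.05 in limma, with Benjamini-Hochberg adjustment over all 38467 probes. Of these, 629 genes (3.2%) were higher in dex at 36 h than in DMSO at 2 h and 765 (3.9%) were lower, with 8 counted in both because their probes disagreed. Where a called gene had more than 1 probe (709 genes), the call rested on a single probe in 558 and was shared by every probe in 73. Counting any probe gives genes with many probes more chances of a call, and the list shares below were not adjusted for probe number. Differences of 1 or more on the log2 scale were reached by 91 of the higher and 36 of the lower genes. The median difference over all genes was -0.0059. The 4 arrays of each group did not overlap on 3712 probes (9.65%).

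The number of genes called rested on which arrays were used, as the plot of counts by array left out shows. Without DMSO 2 h replicate 4 it was 2715, without dex 36 h replicate 1 it was 713, and without dex 36 h replicate 3 it was 840. With only the 8 arrays of the comparison in the fit, 250 genes passed. The replicates are biological by the labels. In these bulk samples, fewer cells of a type and less RNA per cell cannot be told apart.

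**Figure D1:**
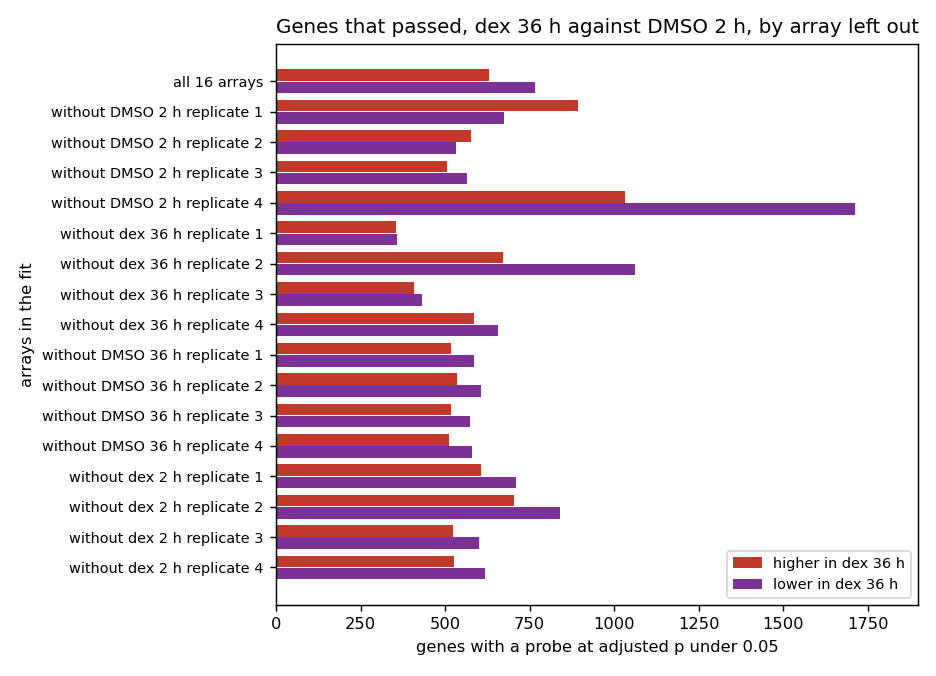
Bars give the number of genes with at least 1 probe at an adjusted p under 0.05 for dex at 36 h against DMSO at 2 h, higher genes above and lower genes beneath in each pair, with all 16 arrays and with each array left out in turn. The counts were 629 and 765 with all arrays, 1033 and 1712 without DMSO 2 h replicate 4, and 355 and 358 without dex 36 h replicate 1.

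At 36 h, 1318 genes were higher with dex than with DMSO by the probe quoted for each gene (6.71% of all) and 944 were lower (4.81%). Each was placed against the early vehicle. It was called above or below the early level where the difference of late dex from early DMSO passed the same test. It was called at that level where the difference did not pass and its 95% interval lay within 0.5 of 0 on the log2 scale, and unresolved otherwise. By the quoted probe, 608 genes in all (3.1%) were higher in late dex than in early DMSO and 747 (3.8%) were lower, and these shares are no yardstick here, because the late dex arrays enter both differences.

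Of the 1318 genes higher with dex, 469 (35.6%) lay above the early vehicle level, 522 (39.6%) lay at it and 327 (24.8%) were unresolved. Which of the first 2 classes was larger changed with the settings: 279 lay above and 209 at it without dex 36 h replicate 1, 374 and 205 without DMSO 36 h replicate 2, and 131 lay at it with a margin of 0.3 in place of 0.5. None was called below it; 25 had a difference under 0, and 0 of these had an unadjusted p under 0.05 in limma, although weighting the arrays placed 5 genes below. The genes above had a median difference of 0.59 from early DMSO and of 0.76 from late DMSO, while DMSO itself changed by a median of -0.17. In 96 of the 469 the fall in vehicle also passed. The genes at the early level had medians of 0.16, 0.38 and -0.24 for the same differences, and the vehicle fall passed in 41 of the 522. In 153 of the 522 the rise over the early level exceeded the vehicle's fall, so a place at that level does not by itself mean loss in vehicle. Over all genes the vehicle fall passed in 192 (0.978%). That share is no yardstick for genes chosen by their difference from late DMSO, because the late DMSO arrays enter the vehicle change too.

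Of the 944 genes lower with dex, 427 (45.2%) lay below the early vehicle level, 236 (25.0%) lay at it and 281 (29.8%) were unresolved. None was called above it; 12 had a difference over 0, of which 1 had an unadjusted p under 0.05, and weighting the arrays placed 1 gene above. In 100 of the 236 genes at the early level the drop under it exceeded the vehicle's rise. The genes below had medians of -0.52 from early DMSO and -0.57 from late DMSO, with a median vehicle change of 0.034. Among the genes higher with dex, the rise over the early level exceeded the vehicle's fall in 795 of 1318. Among those lower with dex, the drop under the early level exceeded the vehicle's rise in 761 of 944.

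Large responses lay mostly away from the early level, which the choice of genes favours. A gene differing by 1 or more from late DMSO can be called at the early level only if its vehicle moved by more than the margin. The small number of genes at that level is therefore no evidence on how large responses arose. Of 195 genes at least 1 higher with dex on the log2 scale at 36 h, 164 (84.1%) were above early DMSO, 30 were unresolved and 1, Adamts12, was at it. In 102 of the 195 the vehicle fall passed, and in 72 it was as large as the gain or larger. Choosing genes by a large difference from late DMSO favours such falls. Of 62 genes at least 1 lower with dex, 56 (90.3%) were below early DMSO and 6 were unresolved.

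**Figure D2:**
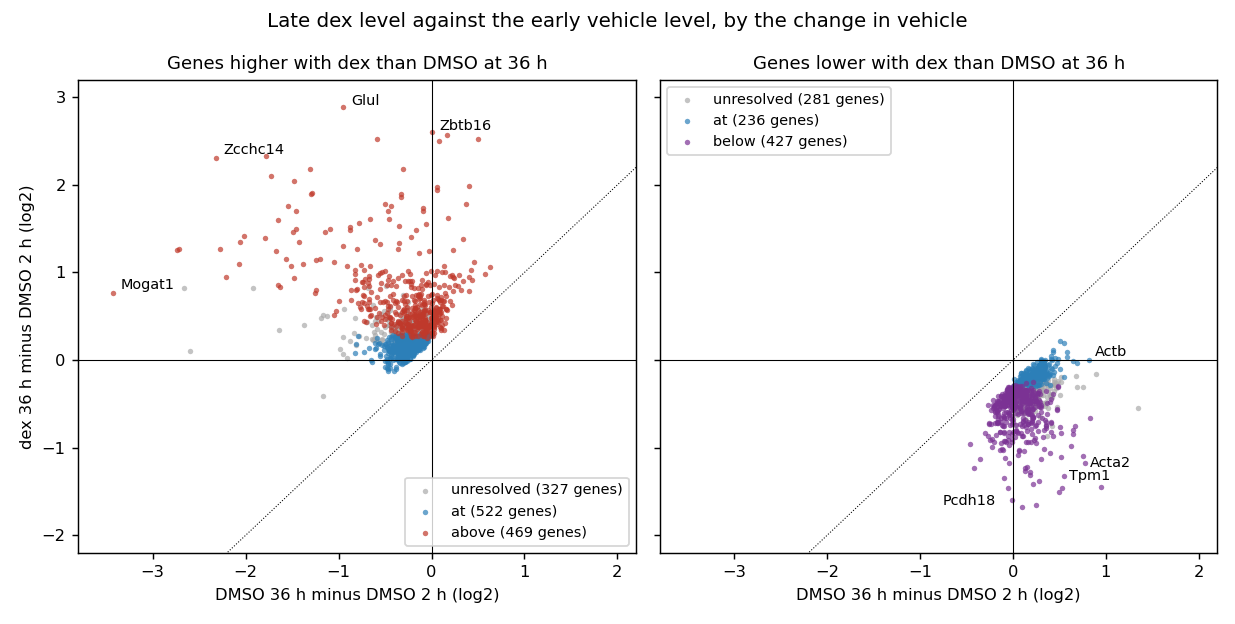
Each point is a gene called at 36 h between dex and DMSO, with the change in DMSO from 2 to 36 h on the horizontal axis and the difference of dex at 36 h from DMSO at 2 h on the vertical axis, both in log2. Points on the dotted diagonal would have equal levels in dex and DMSO at 36 h. Genes higher with dex spread to the left to Mogat1, whose vehicle level fell by 3.43. The lower genes lie mostly beneath 0, with a median vehicle change of 0.14 over all of them and of 0.034 in those below the early level.

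The largest rises over the early vehicle included known glucocorticoid targets. Glul, which encodes glutamine synthetase, read -1.26, -1.19, -2.01 and -2.05 in the DMSO 2 h arrays and 1.11, 1.44, 1.05 and 1.45 in the dex 36 h arrays. It rose by 2.89 ± 0.21 (log2 difference ± SE, 4 arrays a group, adjusted p = 1.03e-06), or 7.42-fold. Its vehicle level fell by 0.95 (adjusted p = 0.0483), so the difference between dex and DMSO at 36 h, 3.84, was larger than the gain over the start. Zbtb16, a zinc finger repressor, read -1.45, -1.64, -1.80 and -1.64 early and 1.05, 0.89, 1.14 and 0.84 in late dex. All 4 late values lay above all 4 early ones, and the rise of 2.61 ± 0.10 (adjusted p = 8.46e-10) stood beside a vehicle change of 0.0085, so nearly all of its difference at 36 h was gain.

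Fkbp5, a cochaperone that lowers the receptor's affinity for its ligand, rose by 2.52 ± 0.12 (adjusted p = 2.17e-08) from early values of -1.75 to -1.20 to late values of 0.78 to 1.16. Its vehicle level fell by 0.59 (adjusted p = 0.035). Tsc22d3, also known as GILZ, an inhibitor of NF-kappaB and AP-1, rose by 2.51 ± 0.24 (adjusted p = 1.57e-05), with late values of 0.94, 1.30, 0.93 and 0.92. Its DMSO arrays ranged from -1.69 to -0.97 early and from -2.16 to -0.76 late, and its other 3 probes differed by 0.21 to 0.87. Rhob, a small GTPase that is induced by many stimuli, rose by 2.57 ± 0.09 (adjusted p = 2.82e-10), and its vehicle change was 0.17.

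**Figure D3:**
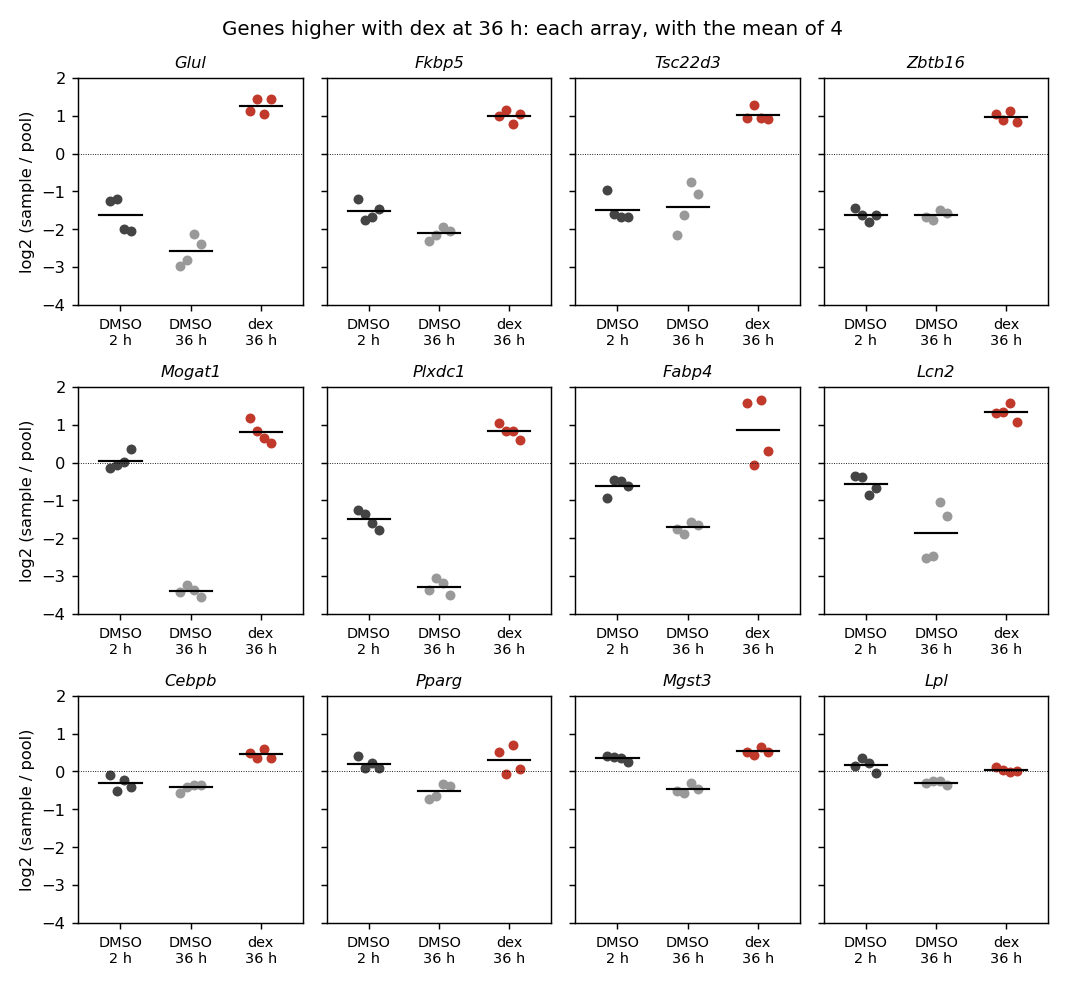
Log2 ratio of sample to pool on each array for 12 genes higher with dex at 36 h, in DMSO at 2 h, DMSO at 36 h and dex at 36 h, with the mean of each 4 arrays as a line. Glul, Fkbp5, Tsc22d3 and Zbtb16 stand well above both DMSO groups, Mogat1 and Plxdc1 also fell in DMSO, and Pparg, Mgst3 and Lpl stood near the early level in late dex.

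Of 38 glucocorticoid receptor targets measured, 28 rose over the early vehicle and 1 fell, against 3.2% and 3.9% of all genes. The same shares of all genes, 3.2% for rises and 3.9% for falls, apply to every list count that follows. Their median was 0.78, against -0.0059 over all genes. The 28 included Dusp1, a MAP kinase phosphatase (1.99 ± 0.19), Errfi1, a feedback inhibitor of the EGF receptor (1.94 ± 0.22), Ddit4, an inhibitor of mTOR signalling (1.76 ± 0.13), and Pdk4, which slows the entry of pyruvate into mitochondria (1.62 ± 0.11). They also included Klf9 (0.73 ± 0.12), the clock genes Per1 (0.60 ± 0.16) and Per2 (0.67 ± 0.15), and Foxo3 (0.80 ± 0.10). Of the 29 members higher with dex at 36 h, 27 lay above the early level and 2 were unresolved; none of the list lay at it. This list and those that follow were chosen with earlier results of these samples in view, so their shares are descriptions and no test. The count of rises among the glucocorticoid targets ran from 20, with only the 8 arrays, to 28 over the alternatives. Angptl4, a secreted inhibitor of lipoprotein lipase, was the member that fell, by 0.75 ± 0.15 (adjusted p = 0.00993), and its difference from late DMSO, -0.48, did not pass (adjusted p = 0.0665).

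Targets of the receptor carry glucocorticoid response elements, inverted repeats around a short spacer. A full palindromic form was searched, and a looser form that fixes fewer letters of each arm and takes in the full one. Windows from 250 bases before to 50 after the transcript start were given by RefSeq (GRCm38.p6) for 15191 of the 19640 genes and were searched on both strands. The full form was in 2 windows (0.0132%), those of Sgk1 and Acnat2, and the looser form in 75 (0.494%). It was in 10 of 369 windows (2.71%) of genes above the early level, in 2 of 320 (0.625%) of genes below it, and in 0 of 435 and 0 of 176 of genes at it that were higher and lower with dex. These are letters in a short window, not tested sites. The 4 windows shown are those of genes whose late dex level lay above the early vehicle; they were chosen after the values were seen, and capitals mark the match.
Sgk1 promoter, chr10:21993640-21993939, plus strand: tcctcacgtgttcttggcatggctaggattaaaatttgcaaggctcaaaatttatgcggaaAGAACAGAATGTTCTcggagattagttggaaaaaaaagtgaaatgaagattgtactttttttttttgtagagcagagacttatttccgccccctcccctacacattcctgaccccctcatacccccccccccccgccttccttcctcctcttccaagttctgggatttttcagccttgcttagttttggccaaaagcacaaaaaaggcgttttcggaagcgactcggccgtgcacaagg
Mt1 promoter, chr8:94178839-94179138, plus strand: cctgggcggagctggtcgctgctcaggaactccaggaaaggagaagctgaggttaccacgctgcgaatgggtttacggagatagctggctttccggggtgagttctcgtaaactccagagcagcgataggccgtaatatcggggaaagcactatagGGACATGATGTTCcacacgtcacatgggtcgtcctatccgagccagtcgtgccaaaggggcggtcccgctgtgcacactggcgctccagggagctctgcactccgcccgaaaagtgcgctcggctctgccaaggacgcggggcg
Map3k6 promoter, chr4:133240568-133240867, plus strand: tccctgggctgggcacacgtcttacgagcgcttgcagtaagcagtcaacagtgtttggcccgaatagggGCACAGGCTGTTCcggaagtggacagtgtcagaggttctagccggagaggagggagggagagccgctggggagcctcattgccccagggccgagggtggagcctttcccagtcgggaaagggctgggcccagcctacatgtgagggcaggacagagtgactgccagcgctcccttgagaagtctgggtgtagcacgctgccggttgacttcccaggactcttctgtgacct
Slc10a6 promoter, chr5:103629354-103629653, minus strand: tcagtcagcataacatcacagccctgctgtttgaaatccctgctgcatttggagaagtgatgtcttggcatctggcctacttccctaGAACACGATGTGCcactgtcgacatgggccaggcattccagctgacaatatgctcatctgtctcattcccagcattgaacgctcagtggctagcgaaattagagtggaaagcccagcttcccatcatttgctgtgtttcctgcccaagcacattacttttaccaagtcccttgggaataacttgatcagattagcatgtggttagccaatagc

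Sgk1, a kinase that regulates sodium channels, has the full form 189 to 175 bases before its start. Its early DMSO arrays read -0.30, -0.48, -0.39 and -0.39 and its late dex arrays 0.45, 0.25, 0.30 and 0.20, a rise of 0.69 ± 0.08 (adjusted p = 9.77e-05). Mt1, a metallothionein, which binds zinc and copper, has a looser match 94 to 82 bases before its start and rose by 1.48 ± 0.11 (adjusted p = 1.32e-06). Map3k6, a stress-activated kinase, rose by 1.61 ± 0.17 and Slc10a6, a carrier of sulphated steroids, by 1.55 ± 0.27. The vehicle change was under 0.5 in size and did not pass in any of these 4 genes, and the dex arrays stood above both DMSO groups.

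Nr3c1, the receptor gene itself, read 0.42, -0.17, -0.25 and -0.06 early and -0.45, -0.54, -0.65 and -0.36 in late dex. It fell by 0.48 ± 0.12 (adjusted p = 0.0335), although its difference from late DMSO, -0.38, did not pass (adjusted p = 0.0685). The call was lost with only the 8 arrays (adjusted p = 0.251). Of 11 genes of the receptor, its chaperones and steroid enzymes, Fkbp5 rose and Nr3c1 fell. Hsd11b1, which turns inactive cortisone-type steroids into active ones, was higher with dex at 36 h by 0.67 but its difference of 0.30 ± 0.16 from early DMSO did not pass (adjusted p = 0.343).

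A further set of genes combined gain in dex with loss in vehicle. Plxdc1, a membrane receptor of the plexin-domain type, read -1.26, -1.35, -1.59 and -1.78 in early DMSO, -3.38, -3.06, -3.19 and -3.49 in late DMSO, and 1.05, 0.84, 0.84 and 0.60 in late dex. The 3 groups did not overlap. Its 17.3-fold difference at 36 h parted into a rise of 2.33 ± 0.14 over the start (adjusted p = 1.68e-07) and a vehicle fall of 1.78. Zcchc14, a zinc finger gene, rose by 2.31 ± 0.13 while its vehicle fell by 2.32, though its other probe differed by only -0.29 from early DMSO.

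In Mogat1, an acyltransferase that makes diacylglycerol, most of the late difference was loss. Its early DMSO arrays read -0.15, -0.07, 0.02 and 0.35, its late DMSO arrays -3.41, -3.23, -3.37 and -3.56, and its late dex arrays 1.19, 0.83, 0.65 and 0.52. Dex exceeded DMSO 18.3-fold at 36 h, but the rise over the start was 0.76 ± 0.14, or 1.70-fold (adjusted p = 0.0054), against a vehicle fall of 3.43 (adjusted p = 5.92e-09). With only the 8 arrays the rise did not pass (adjusted p = 0.0946). Artn, the neurotrophic factor artemin, likewise rose by 1.26 ± 0.23 with a vehicle fall of 2.74, and Aldh1a1, a retinaldehyde dehydrogenase chosen after its values were seen, rose by 1.34 ± 0.23 with a fall of 2.06. Mrnip, a DNA repair factor, rose by 1.27 ± 0.20 with a fall of 2.28. The other probes of Artn and Mrnip differed from early DMSO by -0.09 to 0.07, so these values rest on 1 probe each.

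Lcn2, the iron-sequestering lipocalin 2, read -0.36, -0.39, -0.85 and -0.68 early and 1.32, 1.33, 1.58 and 1.06 in late dex, a rise of 1.89 ± 0.26 (adjusted p = 5.16e-04) beside a vehicle fall of 1.29. Myc, the growth-promoting transcription factor, rose by 0.98 ± 0.15 (adjusted p = 9.38e-04) and its vehicle level fell by 0.82 (adjusted p = 0.0115). For Adcy3, an adenylyl cyclase, the quoted probe rose by 2.11 ± 0.13 and the vehicle fell by 1.73. Its 2 other probes differed by -0.46 and -0.05, and 1 of them passed in the opposite direction, so the gene's direction depends on the probe.

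Genes at the early level whose vehicle level fell follow the second description. Mgst3, a microsomal glutathione transferase, read 0.42, 0.39, 0.36 and 0.24 in early DMSO, 0.52, 0.44, 0.65 and 0.51 in late dex, and -0.51, -0.58, -0.32 and -0.45 in late DMSO. Dex exceeded DMSO by 1.0 at 36 h (adjusted p = 1.19e-06), and the late dex level differed from the start by 0.18 ± 0.08 (95% interval 0.0035 to 0.36, adjusted p = 0.253). Its vehicle fall was 0.82 (adjusted p = 8.67e-05), so the 2 DMSO groups stood further apart than late dex and early DMSO. A further Mgst3 probe had the same order, with 0.96 over late DMSO. Another differed by -0.18 from late DMSO and by -0.35 from early DMSO, so the pattern depends on the probe. Adamts12, a secreted metalloprotease, differed by 1.06 from late DMSO and by 0.27 ± 0.11 from early DMSO, with a vehicle fall of 0.79. Tspo, a cholesterol-binding protein of the outer mitochondrial membrane, Nck1, an adaptor of receptor tyrosine kinases, and Cdc42ep2, an effector of Cdc42, had the same order, with vehicle falls of 0.61, 0.59 and 0.67 that all passed. The other probe of Cdc42ep2 differed by -0.0028 from late DMSO and by -0.28 from early DMSO. Gas1, a growth arrest gene of the plasma membrane, was 0.62 higher than late DMSO and -0.017 ± 0.10 from early DMSO, with a vehicle fall of 0.64 (adjusted p = 0.00304).

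Among transcription factors that promote adipogenesis, 3 of 29 rose (Cebpb, Cebpd and Klf9) and 1 fell (Nr3c1). Rises were thus 10.3% and falls 3.4%, against 3.2% and 3.9% of all genes. Their median was 0.05. Cebpb read -0.09, -0.52, -0.22 and -0.40 early and 0.50, 0.37, 0.59 and 0.36 in late dex, a rise of 0.76 ± 0.10 (adjusted p = 4.07e-04). Cebpd rose by 0.60 ± 0.13 (adjusted p = 0.0118), and did not pass with only the 8 arrays (adjusted p = 0.12). Vehicle changes of both genes, -0.11 and -0.26, did not pass.

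Pparg, the master regulator of fat cell differentiation, differed from this order. It read 0.40, 0.10, 0.22 and 0.09 in early DMSO, -0.72, -0.64, -0.33 and -0.40 in late DMSO, and 0.51, -0.08, 0.69 and 0.06 in late dex. Late dex overlapped early DMSO and both stood above late DMSO. The late difference of 0.82 (adjusted p = 0.00247) stood beside a vehicle fall of 0.73 (adjusted p = 0.0332) and a difference from the start of 0.09 ± 0.15 (95% interval -0.23 to 0.41). Its other 2 probes differed from the start by -0.05 and 0.39 and did not pass. Cebpa differed by -0.40 ± 0.13 from early DMSO, which did not pass (adjusted p = 0.0836).

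Of 42 genes of the mature adipocyte, 7 rose and 1 fell, and their median was 0.11. The rises numbered 10 without DMSO 2 h replicate 4 and 3 with only the 8 arrays. Fabp4, the adipocyte fatty acid binding protein, read -0.93, -0.46, -0.49 and -0.62 early and 1.57, -0.07, 1.66 and 0.31 in late dex. Late dex replicates 1 and 3 stood well above replicates 2 and 4, and all 4 stood above the early values. The rise was 1.49 ± 0.31 (adjusted p = 0.0111) and was not called with the 8 arrays alone (adjusted p = 0.142), and its vehicle change of -1.10 did not pass (adjusted p = 0.142). The others that rose were Lpin1, a phosphatidate phosphatase (1.34 ± 0.15), Orm1, an acute-phase plasma protein (0.93 ± 0.21), Plin4, a lipid droplet coat protein (0.77 ± 0.09), Mogat1, Cd36, a fatty acid transporter (0.65 ± 0.17), and the lipase gene Pnpla2 by a probe other than its quoted one. Lpin2, of the same enzyme family as Lpin1, fell by 0.57 ± 0.14, while its other probe differed by 0.30, which did not pass.

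Adipoq, which encodes adiponectin, differed from the start by 0.05 ± 0.08 (adjusted p = 0.822). Lpl, lipoprotein lipase, read 0.14, 0.36, 0.21 and -0.04 early, 0.12, 0.05, -0.01 and 0.01 in late dex, and -0.30, -0.26, -0.25 and -0.37 in late DMSO. By its quoted probe it was thus at the early level, with 0.34 over late DMSO (adjusted p = 0.0164) and a vehicle fall of 0.46 (adjusted p = 0.0105). The other probe of Lpl differed by 0.020 from late DMSO and by -0.22 from early DMSO. Agt, angiotensinogen, had late dex values of 1.18, 0.06, 1.45 and 0.37, split between replicates as in Fabp4, and was unresolved (0.51 ± 0.24, adjusted p = 0.269) despite a vehicle fall of 1.17.

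Preadipocyte markers and inhibitors of adipogenesis were more often lower than higher. Of 38 measured, 11 fell and 1, Klf2, rose (0.53 ± 0.10), and the median was -0.29. Falls were thus 28.9% and rises 2.6%, against 3.9% and 3.2% of all genes. Gata2, a GATA factor that holds preadipocytes undifferentiated, read 0.82, 0.62, 0.53 and 0.14 early and -0.86, -0.98, -0.78 and -0.21 in late dex, a fall of 1.24 ± 0.16 (adjusted p = 3.27e-04) beside a vehicle change of 0.13. Id2, an inhibitor of helix-loop-helix factors, fell by 1.31 ± 0.14 (adjusted p = 4.84e-05). Twist1, Notch1, Runx1t1 and Sox9 fell by 0.72 ± 0.11, 0.67 ± 0.15, 0.60 ± 0.10 and 0.48 ± 0.08. Of the 15 members lower with dex at 36 h, 9 were below the start, 2 at it and 4 unresolved. Dlk1, the classical preadipocyte surface protein, was lower than late DMSO by 0.86, yet its difference from the start was -0.18 ± 0.17 (95% interval -0.54 to 0.18). Sox4, a HMG-box factor, read 0.13 to 0.28 in late DMSO and -1.09 to -0.60 in late dex, with early values of -0.74 to -0.42 that overlapped late dex; its vehicle level rose by 0.76 (adjusted p = 0.00407). Without DMSO 2 h replicate 4, 14 genes of this list and 7 of the adipogenic factors fell, and with only the 8 arrays 4 and 0 did.

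Of 30 actin and contractile genes measured, 9 fell under the early level, 19 were called in neither direction and 2 rose (Actn4 by 0.31 ± 0.08, and the talin gene Tln1 by 1 of 57 probes), and the median was -0.29. The 30.0% that fell and 6.7% that rose compare with 3.9% and 3.2% of all genes. Acta2, smooth muscle actin, read 0.22, 0.28, 0.20 and 0.16 in early DMSO, 1.04, 0.85, 1.11 and 0.93 in late DMSO, and -1.11, -1.35, -0.86 and -0.53 in late dex. The 3 groups did not overlap. It fell by 1.18 ± 0.13 (2.26-fold, adjusted p = 8.29e-05) while vehicle rose by 0.77 (adjusted p = 0.00999), although its 3 other probes differed by -0.32 to -0.02, which did not pass. Tpm1, a tropomyosin, fell by 1.32 ± 0.09 (adjusted p = 8.15e-07) with a vehicle rise of 0.55, and its other probe by 0.72. Tpm3, Myh10, a non-muscle myosin heavy chain, and Pdlim7 fell by 1.02 ± 0.16, 0.69 ± 0.18 and 0.54 ± 0.08, with vehicle changes that did not pass. Only 1 of 7 probes of Tpm3 passed. The other probes of Myh10 differed by -0.35 and -0.04, that of Pdlim7 by -0.19 and those of Actn4 by 0.0034 to 0.15. None of these passed.

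Actb, cytoplasmic beta-actin and a common reference gene, followed the other order. Its quoted probe read -0.23, -0.07, 0.04 and 0.05 in early DMSO, 1.07, 0.74, 0.79 and 0.48 in late DMSO, and -0.02, -0.10, -0.06 and -0.03 in late dex. The late difference of -0.82 (adjusted p = 9.03e-05) was matched by a vehicle rise of 0.82 (adjusted p = 7.16e-04), and the difference from the start had a 95% interval of -0.22 to 0.22. None of its 32 probes passed against the start, where they differed by -0.29 to 0.09, and against late DMSO the other probes differed by -0.60 to -0.23. Of the 14 list members lower with dex at 36 h, 8 lay below the early level, 4 at it and 2 were unresolved. The count of falls was 15 without DMSO 2 h replicate 4, 5 without dex 36 h replicate 1 and 2 with only the 8 arrays. The CArG box, the element of serum response factor, which drives many of these genes, was in 7 of 27 windows of the list (25.9%) and in 1.57% of all windows. Of those 7 genes, Lima1 lay below the early level by its quoted probe, 4 (Cnn2, Fhl2, Myl6 and Myl9) at it and 2 (Srf and Vcl) were unresolved. The other probes of Lima1 differed from the start by -0.09 to 0.65, which did not pass. The box was in 1.25% of windows of genes lower with dex and below the early level, and in 3.25% of those higher and above it.

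**Figure D4:**
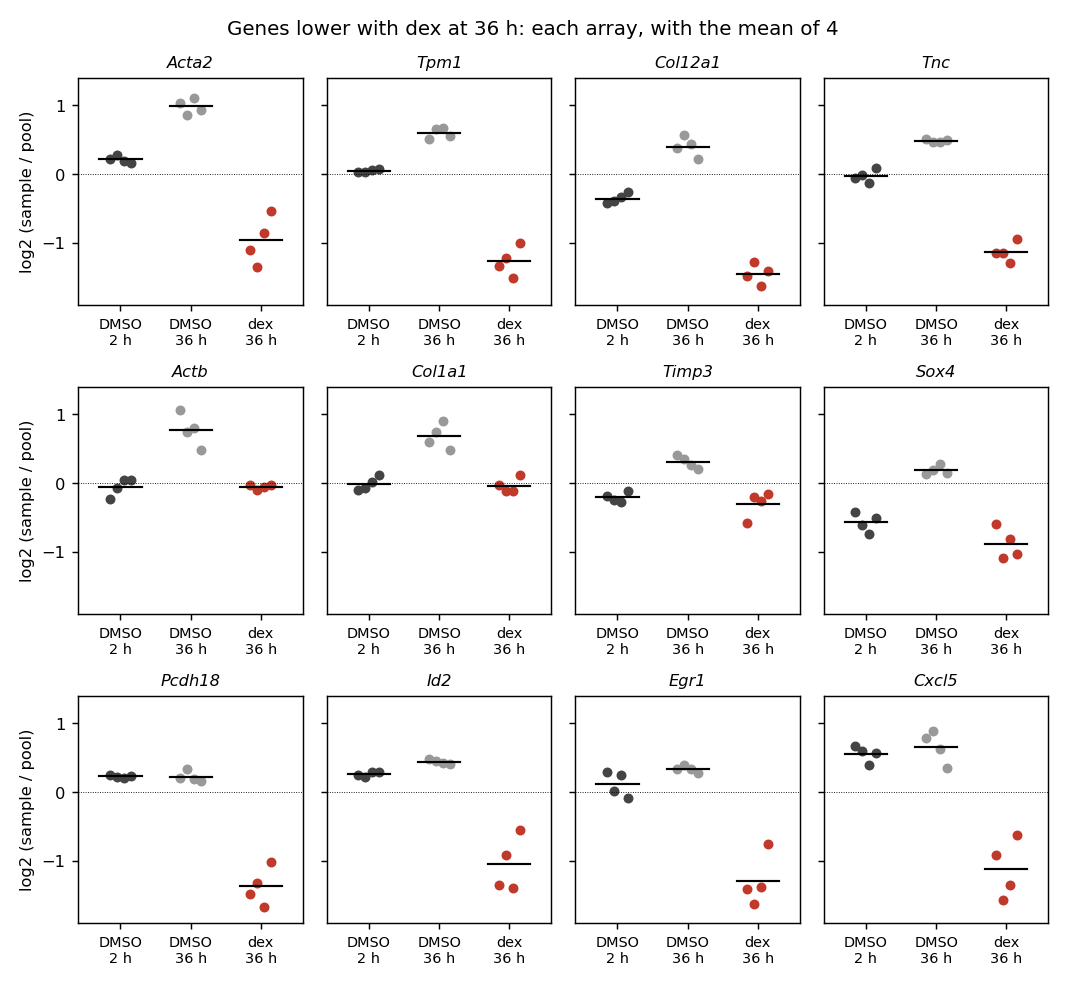
Log2 ratio of sample to pool on each array for 12 genes lower with dex at 36 h, in DMSO at 2 h, DMSO at 36 h and dex at 36 h, with the mean of each 4 arrays as a line. Acta2, Tpm1, Col12a1 and Tnc fell in dex and rose in DMSO, Actb and Col1a1 in dex stood at the early level, and Pcdh18, Id2, Egr1 and Cxcl5 fell in dex with little change in DMSO.

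Of 45 genes of interstitial collagens and other fibroblast matrix, 16 fell (35.6%) and 3 rose (6.7%), with a median of -0.21. Col12a1, a collagen that associates with fibrils, read -0.43, -0.39, -0.34 and -0.26 early and -1.48, -1.28, -1.63 and -1.41 in late dex, a fall of 1.10 ± 0.10 (adjusted p = 1.39e-05) beside a vehicle rise of 0.76, though its other probe differed by -0.14. Tnc, tenascin C, fell by 1.10 ± 0.08 (adjusted p = 1.03e-06) with 4 of its 6 probes passing, Thbs1, thrombospondin 1, by 1.13 ± 0.10, the proteoglycan gene Lum by 1.01 ± 0.14, and Postn, periostin, by 0.80 ± 0.12. Fn1, fibronectin, fell by 0.38 ± 0.09. Ccn1, a matricellular protein (0.86 ± 0.09), Col6a1 (0.35 ± 0.09) and P4ha2 (0.36 ± 0.10) rose.

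Col1a1, the main chain of type I collagen, was the clearest matrix gene at the early level. It read -0.10, -0.07, 0.02 and 0.12 in early DMSO, -0.03, -0.12, -0.12 and 0.12 in late dex, and 0.59, 0.74, 0.90 and 0.49 in late DMSO. The early and the late dex values overlapped and lay below all late DMSO values, with a vehicle rise of 0.69 (adjusted p = 0.0037) and a difference of -0.031 ± 0.10 from the start. Col1a2, its partner chain, differed by -0.14 ± 0.12 from the start and by -0.58 from late DMSO. Of the 22 list members lower with dex at 36 h, 14 were below the early level, 5 at it and 3 unresolved. Falls over the alternatives numbered 5 to 19, with 5 in the 8-array fit.

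Basement membrane genes went either way, with 3 of 23 up and 2 down. Col4a1, a chain of the basement membrane collagen, read -0.27, -0.42, -0.50 and -0.44 early, -1.25, -1.07, -0.92 and -1.09 in late DMSO, and 0.53, 0.66, 0.42 and 0.46 in late dex. It rose by 0.93 ± 0.09 (adjusted p = 1.94e-05) and its vehicle fell by 0.67, whereas its partner Col4a2 differed by 0.33 ± 0.09, which did not pass (adjusted p = 0.0578). Lama2, a laminin chain, rose by 0.67 ± 0.14 and the dystroglycan gene Dag1 by 0.48 ± 0.11, and Lama4 and Col15a1 fell by 0.44 ± 0.10 and 0.67 ± 0.18. Of 25 matrix proteases and inhibitors, Adamts15 (1.79 ± 0.21), Adamts9 (0.69 ± 0.15) and Adamts1 (0.68 ± 0.09) rose, and Mmp3, stromelysin, and Timp1 fell by 0.84 ± 0.15 and 0.42 ± 0.11. Timp3, an inhibitor of metalloproteases, stood at the early level (-0.10 ± 0.10) after a vehicle rise of 0.51 (adjusted p = 0.0165).

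Chemokine, cytokine and NF-kappaB genes numbered 38, of which 7 fell (18.4%) and 2 rose (5.3%), with a median of -0.19. Cxcl5, a neutrophil chemokine, read 0.67, 0.60, 0.40 and 0.57 early and -0.92, -1.57, -1.36 and -0.63 in late dex, a fall of 1.68 ± 0.23 (3.2-fold, adjusted p = 5.33e-04), and its vehicle change was 0.10. Ccl2, a monocyte chemokine, fell by 1.02 ± 0.14 (adjusted p = 4.60e-04), from 0.48 to 0.80 early to between -0.89 and -0.08. The falls of Csf1, the macrophage growth factor, Vcam1, an adhesion receptor, Cxcl12 and Cxcl1 were 0.96 ± 0.14, 0.88 ± 0.09, 0.86 ± 0.11 and 0.76 ± 0.14. Nfkbia, the inhibitor of NF-kappaB, rose by 1.02 ± 0.13 (adjusted p = 2.95e-04), and Ptges, a prostaglandin E synthase, by 0.32 ± 0.07. Ccl7 had the opposite order in vehicle, with a fall of 0.88 from 2 to 36 h (adjusted p = 0.0157) and a late dex difference of -0.57 ± 0.16 from the start that did not pass (adjusted p = 0.0607); it was chosen after its values were seen.

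Of 26 interferon response and antigen presentation genes, 7 fell (26.9%), and the median was -0.25. Ifit3 and Ifit1, which bind viral RNA, fell by 0.92 ± 0.17 and 0.82 ± 0.14, Oasl2 by 0.63 ± 0.09, the transcription factor Irf1 by 0.60 ± 0.10 on its quoted probe with all 4 of its probes passing, and Bst2, tetherin, by 0.51 ± 0.09. Of 18 acute-phase and complement genes, 5 rose and 2 fell. Hp, haptoglobin, rose by 1.16 ± 0.26 (adjusted p = 0.0172) with a vehicle fall of 1.2 (adjusted p = 0.0439). Orm1 and Orm2, near-identical genes whose values are uncertain as separate measurements, rose by 0.93 ± 0.21 and 0.81 ± 0.22. Cp, ceruloplasmin, passed by its other probe, and its quoted probe, 1.67 over late DMSO with a vehicle fall of 1.18, was unresolved against the start (0.48 ± 0.16). C1s1 and Tlr2 fell by 0.37 ± 0.08 and 0.60 ± 0.16.

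Among 35 immediate early genes, which respond to growth factors within minutes, 7 rose and 6 fell. Egr1, a zinc finger factor, read 0.29, 0.02, 0.25 and -0.09 early and -1.41, -1.63, -1.39 and -0.76 in late dex, a fall of 1.42 ± 0.16 (adjusted p = 7.39e-05) with a vehicle change of 0.22. Its relative Egr3 fell by 0.87 ± 0.15 and Plk2, a polo-like kinase, by 0.82 ± 0.09, whereas Dusp1, Myc and Ccn1 rose as given above. Of 29 genes of cell cycle control, 6 rose and 3 fell. Sesn1, a stress-induced inhibitor of mTOR signalling (1.02 ± 0.17), and Gadd45g (0.94 ± 0.12) rose, and Gas2, Ccnd2 and Gadd45a fell by 0.94 ± 0.13, 0.49 ± 0.09 and 0.46 ± 0.10. Ccnd1, cyclin D1, was 0.94 over late DMSO, with a vehicle fall of 0.58 and a difference of 0.36 ± 0.11 from the start that did not pass.

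Few cell division genes were called. Rises were 5.9% of the replication list and 5.7% of the mitosis list, 2 genes in each, against 3.2% of all genes. Falls were 0% and 2.9%, against 3.9%. With only the 8 arrays of the comparison, 0 genes of either list rose. Of 34 replication genes, Mcm7 (0.32 ± 0.09) and Rpa2 (0.45 ± 0.12) rose, and of 35 mitosis genes, Nusap1 (0.98 ± 0.18) and Anln (1.08 ± 0.28) rose and Aurkb fell by 0.51 ± 0.13. Only 1 of 3 probes of Anln passed, and the others differed by 0.45 and -0.00062. The other probes of Mcm7 and Rpa2 differed by 0.16 and 0.30, which did not pass. The mitosis list had a median of 0.32, with 21 of 35 members at an unadjusted p under 0.05, and 7 of its 8 members higher with dex at 36 h were unresolved against the start. In Anln, an actin-binding protein of the cleavage furrow, late DMSO (0.19, 0.06, 1.30 and 0.83) overlapped late dex (0.94, 0.10, 1.13 and 1.36), and the difference between them, 0.29, did not pass.

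Signalling pathways held members on both sides. Of 41 TGF-beta and BMP genes, 10 fell (24.4%) and 5 rose (12.2%), and with only the 8 arrays 2 fell and 1 rose. Without dex 36 h replicate 1, 6 fell and 3 rose. Smad6, Smad3 and Smad7, of which Smad6 and Smad7 inhibit the pathway, fell by 0.75 ± 0.10, 0.64 ± 0.13 and 0.63 ± 0.16. The receptor genes Tgfbr3 and Tgfbr2 rose by 0.43 ± 0.09 and 0.31 ± 0.08, Id4 and Smad1 by 0.45 ± 0.12 and 0.35 ± 0.10, and Ltbp1, which binds latent TGF-beta, by 1.49 ± 0.26. Only 1 of 7 probes of Ltbp1 passed, and the others differed by -0.55 to -0.10. Of 37 Wnt genes, 4 fell (10.8%) and 3 rose (8.1%). Sfrp2, a secreted Wnt inhibitor, read 0.49, 0.02, 0.06 and 0.02 early and -1.37, -1.38, -1.40 and -0.79 in late dex, a fall of 1.39 ± 0.13 (adjusted p = 1.50e-05). The Wnt receptors Fzd1, Fzd2 and Fzd5 fell by 0.93 ± 0.12, 0.68 ± 0.13 and 0.58 ± 0.14, and Apcdd1 (1.01 ± 0.11), Porcn (0.45 ± 0.08) and Lrp5 (0.40 ± 0.09) rose.

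Of 25 insulin and IGF genes, 3 rose and 3 fell. Irs1, the insulin receptor substrate, read 0.43 to -0.02 in early DMSO and -0.95, -0.66, -1.01 and -0.61 in late dex, a fall of 0.93 ± 0.12 (adjusted p = 2.16e-04) on both of its probes. Akt2 fell by 0.55 ± 0.11 and Igf1 by 0.46 ± 0.12, and Foxo3 and Foxo4 (0.51 ± 0.12) rose, with Pik3r1 rising on probes other than its quoted one. Of 18 clock genes, Per1 and Per2 rose, and Dbp, an output gene of the clock, and Bhlhe40 fell by 0.49 ± 0.10 and 0.62 ± 0.14. Rises and falls were each 11.1% of the clock list. In Bhlhe40 late dex did not part from late DMSO (difference -0.0044), and the early arrays (1.03, 0.45, 0.52 and 0.37) lay above both late groups.

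Metal and stress genes had strong single members. Of 30 metallothionein and antioxidant genes, Mt2 (1.90 ± 0.11, adjusted p = 1.68e-07), Slc39a14, a zinc importer (1.70 ± 0.11), Mt1 and the catalase gene Cat (0.44 ± 0.10) rose, and Gpx1 and Hmox1 fell by 0.42 ± 0.09 and 0.34 ± 0.08. Of 30 chaperone genes, Hspa8 (0.66 ± 0.09, all 3 probes passing), Pdia6 (0.62 ± 0.12), Hsph1 (0.60 ± 0.09) and Hspd1 (0.32 ± 0.08) rose, and Dnajb1, Chac1 and Trib3 fell by 0.73 ± 0.18, 0.45 ± 0.09 and 0.40 ± 0.10. Of 24 glycolysis and pyruvate genes, Pdk4, Egln3 (0.96 ± 0.20), Pfkfb3 (0.68 ± 0.16), Pgam1 (0.43 ± 0.11) and Aldoa (0.37 ± 0.08) rose, and the glucose transporter gene Slc2a1 and the enolase gene Eno2 each fell by 0.51, with SE of 0.11 and 0.10. Of 20 sterol genes, Ebp rose (0.40 ± 0.11) and Fdps and Hmgcs1 fell by 0.65 ± 0.17 and 0.64 ± 0.17. Of 30 respiratory chain genes, Sdha rose by 1 of its 30 probes, and the median was -0.032. Its rise makes 3.3% of the list, near the share of all genes.

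**Figure D5:**
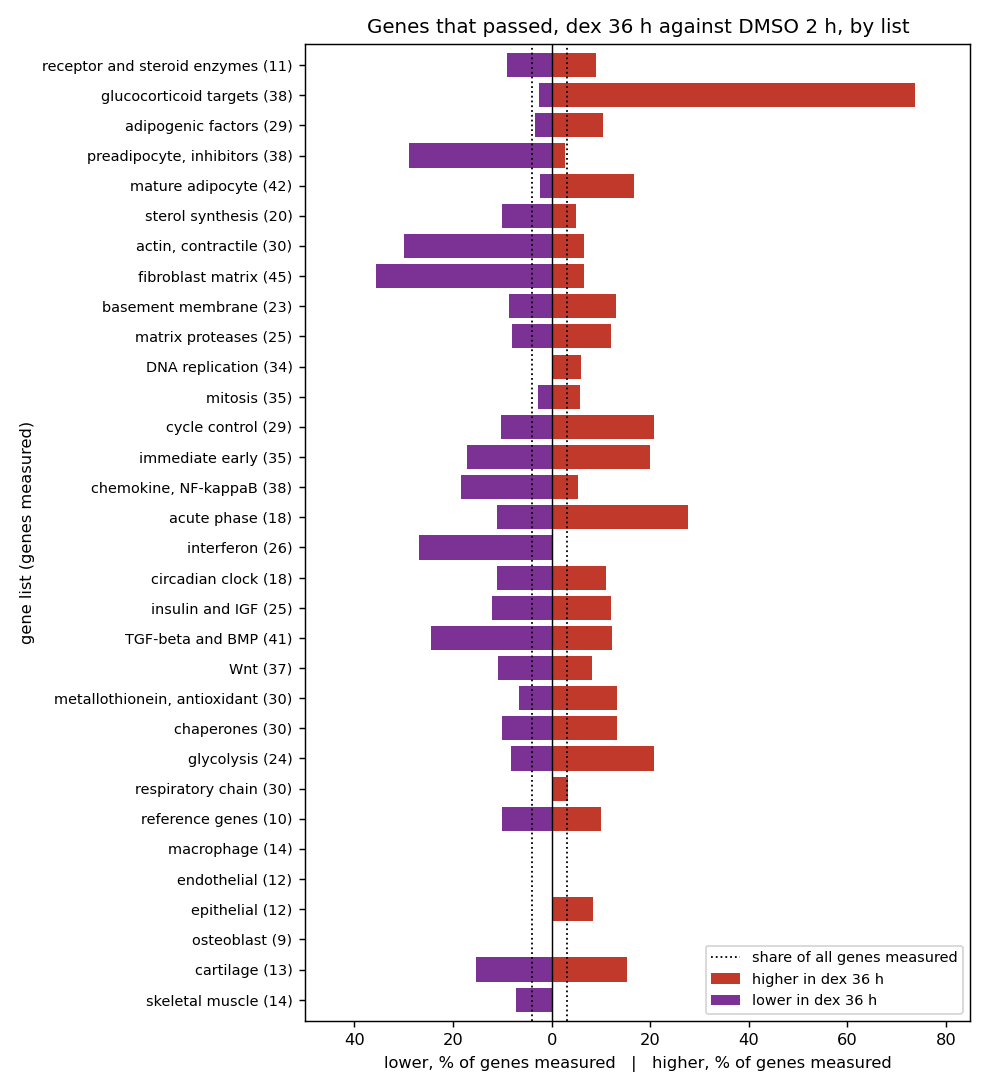
Share of the genes measured in each list that rose (right) or fell (left) in dex at 36 h against DMSO at 2 h, with the number measured in brackets and dotted lines at the shares of all genes, 3.2% and 3.9%. Glucocorticoid targets reach 73.7% on the right, and the matrix, actin, preadipocyte and interferon lists reach 35.6%, 30.0%, 28.9% and 26.9% on the left. The lists were chosen with earlier results of these data known, so the shares are descriptions and no test.

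The counts of falls in several lists changed with the arrays in the fit. Without DMSO 2 h replicate 4 they numbered 11 each in the chemokine, interferon and immediate early lists, and with only the 8 arrays of the comparison they numbered 6, 2 and 2. In the lists for which no count from these 8 arrays is given here, at most 3 genes passed in either direction in that fit. Among genes named with a call, Fdps, Fn1, Lrp5, Col11a2, Col9a1, Sox5, Adamts9 and Tgfbr2 had a further probe whose difference from the start had the opposite sign, -0.49 in Adamts9, 0.13 in Fn1, -0.25 in Lrp5 and -0.27 in Tgfbr2 and under 0.1 in size in the other 4. Such probes reached 0.65 in Lima1, 0.17 in Krr1, 0.03 in Tpm3 and 0.14 in Tbp, which fell. They reached -0.11 in Pnpla2, -0.36 in Tln1 and -0.38 in Sdha, which rose. Further genes of this kind were given with their values above.

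Outside the lists, the largest rises with separate arrays also included Slc45a3 (2.52 ± 0.21), a sugar transporter, Tead4 (2.18 ± 0.16), the Hippo pathway's DNA-binding partner, Thap8 (2.18 ± 0.22), Ncf4 (2.04 ± 0.25), an NADPH oxidase subunit, and Tent5b (1.98 ± 0.21). Vehicle falls passed in Thap8 and Ncf4 (1.31 and 1.48) and not in the other 3. Pcdh18, a protocadherin, was among the largest falls; its arrays read 0.25, 0.22, 0.21 and 0.24 in early DMSO and -1.49, -1.32, -1.67 and -1.01 in late dex, a fall of 1.60 ± 0.11 (adjusted p = 7.64e-07) with a vehicle change of -0.0075. Sycp2, Enc1, Phldb2 and Basp1 fell by 1.51 ± 0.25, 1.46 ± 0.12, 1.35 ± 0.19 and 1.26 ± 0.13, and the vehicle change did not pass in any of them. The other probe of Basp1 differed by -0.02, as that of Errfi1 did by -0.01. Has2, hyaluronan synthase, fell by 1.12 ± 0.14 with a vehicle change of -0.09 and was chosen after its values were seen.

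In 139 genes above the start and 320 below it, dex and DMSO were not called different at 36 h by the quoted probe. Their medians against the start were 0.46 and -0.45. The vehicle change had medians of 0.25 and -0.22, and late dex against late DMSO had medians of 0.21 and -0.22. The difference from late DMSO, though not called, had the same sign as that from the start in 129 of the 139 and 309 of the 320. The vehicle change itself passed in 15 and 19. The largest examples, chosen after their values were seen, were Pigt, which belongs to the complex that attaches proteins to glycolipid anchors, and Krr1, a ribosome assembly factor. Pigt read -0.27, -0.09, 0.00 and -0.07 in early DMSO, 1.12, 0.80, 2.30 and 2.19 in late DMSO, and 1.90, 0.86, 2.31 and 1.86 in late dex; the late groups overlapped and lay above the early one, with a rise of 1.84 ± 0.32 (adjusted p = 0.00307) and 3 of its 5 probes passing. The other 2 differed by 0.06 and 0.37. Krr1 fell by 1.12 ± 0.20 against a vehicle fall of 1.04, on 1 of its 3 probes. Adamts1 (vehicle rise of 0.44, adjusted p = 0.0255) and Gpx1 were of this kind too.

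Markers of other cell types were called in some lists and not in others, beside 7.06% of all genes called in either direction. In the cartilage list 15.4% rose and 15.4% fell, against 3.2% and 3.9% of all genes. Of 14 macrophage, 12 endothelial and 9 osteoblast markers, 0 passed in limma, with 1, 2 and 1 at an unadjusted p under 0.05, and their medians were 0.07, 0.08 and 0.04. Of 12 epithelial markers, Krt8, a keratin, rose by 0.67 ± 0.08 (adjusted p = 9.19e-05). Of 13 cartilage markers, Sox5 (0.51 ± 0.12) and Col11a2 (0.30 ± 0.08) rose and Col9a1 and Sox9 fell by 0.59 ± 0.11 and 0.48 ± 0.08. Of 14 skeletal muscle markers, Actc1 fell by 0.56 ± 0.13. Among 10 common reference genes, Tbp fell by 0.41 ± 0.09 on 2 of its 31 probes and Sdha rose on 1 of 30.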

How the data were processed

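Values were deposited by the authors as 1 log ratio per probe and array (sample, Cy5, over pool, Cy3), and were used as log2 ratios. Base, background correction and normalization were not given in the sources used here; a natural log base would scale every difference by a constant. The submitters' processing notes name limma. No intensities were used, so signal over background is unknown, and the number of arrays limits the precision.

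Of 38467 probes, the platform annotation named 1 gene for 29456, several for 760 and none for 8251. RefSeq (GRCm38.p6) held 28735 of the first kind; for the other 721 the platform's name was used. No probe positions were used.

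limma 3.58.1 in R 4.3.3 fitted 4 group means to all 16 arrays (lmFit, eBayes; 12 residual and 3.19 prior degrees of freedom), with Benjamini-Hochberg adjustment over all probes, and was tested on simulated data. SE is that of the fitted difference, from 1 variance per probe over all groups. The standard deviation after removal of group means was 0.212 to 0.502 in DMSO 2 h and 0.124 to 0.174 in DMSO 36 h. The pooled SE and p may thus be too small for differences from DMSO 2 h and too large for those between the 36 h groups. A gene counted as passing with any probe of its own (naming no other gene) at an adjusted p under 0.05. Its quoted probe was that with the lowest moderated F p over the groups.

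Genes named were the 15 largest rises and falls with separate arrays, the 10 largest by dex against DMSO at 36 h in each class, up to 5 passing and 3 not passing members of each list, and 22 set genes. Symbols ending in Rik or starting with Gm were counted but not named. Genes outside this rule, which complete a count of 5 or fewer or extend a group (Angptl4, Klf2, Cd36, Lpin2, Actn4, Tln1, Col6a1, P4ha2, Postn, Fn1, Ptges, Cxcl1, Cxcl12, C1s1, Ccnd2, Gadd45a, Plk2, Hspd1, Trib3, Hmox1, Aldoa, Pgam1, Tgfbr2, Tgfbr3, Smad1, Id4, Lrp5, Porcn, Ddit4, Pdk4, Sgk1, Mt1, Map3k6, Slc10a6, Ccl7, Aldh1a1, Has2, Pigt, Krr1, Lima1, Cnn2, Fhl2, Myl6, Myl9 and Srf), were chosen after their values were seen. The comparison and the gene lists were chosen with earlier results of these data known. Alternatives covered the arrays and weights in the fit, scaling, thresholds, a filter on variation, probe averaging and the margin.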

Additional observations from a re-analysis of the deposited data

Results flagged for a closer look

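Among 128 groups of 4 arrays tested (genes named as largest, by class or as set genes, in dex at 36 h and in DMSO at 2 h), 12 held an array whose gap to its nearest neighbour, over the group's range, exceeded Dixon's 95% critical value. Chance gives about 1 in 20. Of the 12, 3 were dex 36 h replicate 4 and 3 were DMSO 2 h replicate 1.

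In dex at 36 h, Tsc22d3 read 1.30 on replicate 2, above the rest, and Papss2 read -0.469 there. Per1 read -0.171 on replicate 3, below the rest. On replicate 4, Sfrp2 read -0.795, Tent5b 0.323 and Piezo2 -0.0591.

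In DMSO at 2 h, replicate 1 read -0.970 for Tsc22d3, 0.491 for Sfrp2 and 0.367 for Pdha1. Sycp2 read 0.457 on replicate 2. On replicate 4, Tead4 read -1.37 and Plxna4 -0.457. Of these genes, Tsc22d3, Sfrp2, Tead4, Sycp2, Per1 and Tent5b had groups that did not overlap in spite of the array that stood apart.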

How the results depend on the processing

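Directions were kept under every alternative by all named genes that passed, except in the mean of a gene's probes, where Lima1 was 0.0986, Ltbp1 -0.0573 and Sdha -0.0744. Of 168 named genes that passed, 90 did not with the 8 arrays alone, and 22 did not with the replicate block. Counts moved more. Genes higher and lower against early DMSO were 159 and 91 with the 8 arrays alone, 1151 and 1617 with array weights, 356 and 372 with log-odds above 0, 284 and 257 at an adjusted p under 0.01, and 390 and 366 among the more variable probes. Without 1 array in turn they ran from 355 to 1033 and from 358 to 1712, in all from 713 to 2715.

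The class counts (higher with dex and above, higher and at, lower and at, lower and below) were 931, 2175, 1927 and 1271 with array weights, where 5 genes were higher and below and 1 was lower and above. They were 266, 152, 55 and 192 with log-odds, 231, 178, 63 and 152 at an adjusted p under 0.01, and 306, 78, 27 and 228 among the more variable probes. The genes at the early level, higher and lower, were 337 and 151 without the dex 2 h arrays, 1173 and 823 with arrays scaled to equal spread, 1080 and 812 after quantile normalization, 131 and 47 with a margin of 0.3, and 836 and 506 with a margin of 1. Without 1 array in turn the 4 classes ran from 279 to 615, 205 to 754, 82 to 398 and 218 to 731, and the empty class of genes higher and below from 0 to 1. The cause was not tested. A smaller adjusted p, the log-odds rule and the filter test or keep fewer genes by construction.

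With the replicate number as a block, 1188 genes passed (542 higher, 651 lower). Deviations from the group means on arrays of the same number correlated at 0.0033, -0.103, 0.042 and -0.0094 between dex 36 h and DMSO 2 h, so the numbers were not taken to pair the samples.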

Other observations

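The dex arrays at 2 h allow the late dex level to be set beside the early one, with the same early DMSO arrays under both differences. Pcdh18 had a difference from early DMSO of -1.31 ± 0.11 at 2 h and -1.60 ± 0.11 at 36 h, and Glul of 3.09 ± 0.21 and 2.89 ± 0.21. Acta2 and Egr1 stood at -0.01 ± 0.13 and 0.13 ± 0.16 at 2 h, which did not pass, and at -1.18 ± 0.13 and -1.42 ± 0.16 at 36 h. Cxcl5 and Ccl2 were lower at 2 h, by 2.45 ± 0.23 and 1.83 ± 0.14, than at 36 h, by 1.68 ± 0.23 and 1.02 ± 0.14. Sox4 was 0.97 ± 0.12 above early DMSO at 2 h (adjusted p = 1.22e-04) and -0.31 ± 0.12 at 36 h (adjusted p = 0.151). Mogat1 stood at 0.06 ± 0.14 at 2 h, which did not pass. The differences between the times were not tested here.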
